A study of Mus musculus with 12 samples.

Results

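Otx1, Otx2, Eomes, Lmx1a, Lmx1b and Wls were followed in mouse cerebellum and in medulloblastoma. These 6 of the 24091 genes in the table were chosen by name, as factors of the unipolar brush cell lineage and of Group 3 and Group 4 medulloblastoma, with their levels in these samples already known, so differences between tumor and other tissue are given for them as descriptions without a test. Limma p-values printed for these genes in the other comparisons carry the same limit and are descriptions too. RNA sequencing covered 12 samples from 9 mice in 4 groups of 3. Tumors came from the Brca2-mut;Trp53-mut mice GB344, GB359 and GB370, which lack Trp53 in the whole body and in which hGFAP-Cre removes Brca2 exons 3 and 4 in cells of the central nervous system. Adjacent cerebella came from the same 3 mice and therefore from tumor-bearing animals. Control cerebella came from tumor-free mice at postnatal day 90, 3 of them Brca2-mut;Trp53-WT (GB361, GB508 and GB512) and 3 Brca2-WT;Trp53-mut (GB517, GB519 and GB520). Every group thus carried at least one of the mutations. The study describes the normal cerebellum compared with tumors as age-matched. The age of each tumor-bearing mouse and the Cre status of the Brca2-WT mice were not given in the sources used here. Values are in TPM, a relative level of transcripts that accounts for their length, and the read depth behind them is unknown.

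OTX1 and OTX2 are paired-type homeodomain transcription factors of the fore- and midbrain that are also found in granule cell progenitors of the external granule layer, where Otx1 marks anterior and Otx2 posterior lobules. Unipolar brush cells are excitatory interneurons of the cerebellar cortex that, like granule cells, arise from the upper rhombic lip. They express Eomes, a T-box transcription factor, and Lmx1a, a LIM-homeodomain factor of the roof plate and rhombic lip. Lmx1b is the close paralog of Lmx1a in roof plate and isthmus, and Wls encodes the membrane protein that carries WNT ligands to the cell surface. In human medulloblastoma, high OTX2 is known from Groups 3 and 4, and EOMES and LMX1A from Group 4.

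All coordinates are on mouse build GRCm38.p6 (mm10). Otx1 lies at chr11:21994764-22001651, Otx2 at chr14:48656781-48667644, Eomes at chr9:118478186-118486132, Lmx1a at chr1:167688230-167848741, Lmx1b at chr2:33560965-33641208 and Wls at chr3:159839650-159938666. RefSeq promoter windows, from 250 bases before to 50 after a transcription start, were matched for 5 of the 6 genes, with 4 windows for Otx2 and 8 in all. Both strands were searched for the OTX site TAATCC, which 7.06% of 32851 promoter windows held, and 1 of the 8 windows held it, at an Otx2 start on the minus strand inside the annotated gene. The T-box site AGGTGTGA (1.28% of all windows), the GLI core GACCACCCA (0.253%) and the proneural E-box CAGCTG (16.3%) were in none of the 8 windows. Windows of 3 genes are printed 5′ to 3′, for the gene whose level differed most among the tumors (Otx2) and for the pair whose levels were lower in tumors (Eomes and Lmx1a). Capitals mark the reverse complement of the OTX site.
Otx2, chr14:48665060-48665359, minus strand: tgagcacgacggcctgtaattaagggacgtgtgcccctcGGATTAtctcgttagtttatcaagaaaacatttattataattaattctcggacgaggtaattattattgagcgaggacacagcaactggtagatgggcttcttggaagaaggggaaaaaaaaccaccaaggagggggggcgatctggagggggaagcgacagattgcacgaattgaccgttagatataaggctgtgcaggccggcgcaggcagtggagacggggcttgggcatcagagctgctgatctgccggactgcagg
Eomes, chr9:118477939-118478238, plus strand: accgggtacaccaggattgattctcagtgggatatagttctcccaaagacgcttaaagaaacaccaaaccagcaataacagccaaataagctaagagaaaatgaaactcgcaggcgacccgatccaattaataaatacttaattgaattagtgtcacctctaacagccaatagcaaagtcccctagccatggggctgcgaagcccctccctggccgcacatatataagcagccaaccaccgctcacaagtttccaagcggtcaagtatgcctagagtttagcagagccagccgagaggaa
Lmx1a, chr1:167689308-167689607, plus strand: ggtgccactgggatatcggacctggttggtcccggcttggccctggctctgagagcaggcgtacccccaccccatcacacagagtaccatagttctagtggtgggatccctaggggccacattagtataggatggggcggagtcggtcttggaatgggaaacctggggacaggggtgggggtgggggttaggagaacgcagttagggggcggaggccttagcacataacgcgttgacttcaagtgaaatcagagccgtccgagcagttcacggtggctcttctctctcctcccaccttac
A match of letters is a description of the window and not of binding.

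Cell type markers separated tumors from cerebella as labelled. Against controls, 8 of 8 granule neuron genes and 6 of 6 Purkinje cell genes were lower in tumors, where 21.5% of all 16241 genes tested were lower. Among these markers were Gabra6, a granule cell GABA receptor subunit (log2 fold change -5.01 ± 0.29 SE, limma adjusted p = 1.29e-07), and Pcp2 of Purkinje cells (-5.38 ± 0.51, limma adjusted p = 4.74e-06). Atoh1, the proneural factor of granule progenitors, rose by 7.61 ± 0.25 (limma adjusted p = 1.01e-08). A gene is called higher or lower here when limma's adjusted p is below 0.01 and the log2 fold change of TPM + 1 is at least 1 in size, among genes that reached 1 TPM in 3 or more of the samples compared. Atoh1, Nhlh1, Fgf8, Foxa2 and Oas1g stayed below 1 TPM in every control, and Kcnj13, Notum, Pax2 and Pde6g in every tumor, so these genes passed the filter only through the group where they were high and had to differ. Across all genes tested, the median log2 fold change was -0.11 for tumors against controls and -0.14 for tumors against adjacent cerebella. It moved to -0.01 and 0.02 with median-of-ratios scaling, and to 0.04 and 0.12 with quantile normalization. In such bulk samples, fewer cells of a type and less RNA per cell cannot be told apart.

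Otx1 was the member with the widest range. It stood at 115, 146 and 167 TPM in the tumors of GB344, GB359 and GB370. Adjacent cerebella of the same mice held 49.9, 25.7 and 2.88 TPM. Levels were 0.487, 0.321 and 0.755 TPM in the Brca2-mut;Trp53-WT controls and 0.328, 0.429 and 0.351 TPM in the Brca2-WT;Trp53-mut controls. Every tumor was thus above every adjacent cerebellum, and every adjacent cerebellum above every control, while the control genotypes overlapped. The tumor mean of 143 ± 26.2 TPM (SD, n = 3) was 320.5 times the control mean of 0.445 ± 0.165 TPM (SD, n = 6), or 6.63 ± 0.15 (SE) on the log2 scale of TPM + 1.

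**Figure D1:**
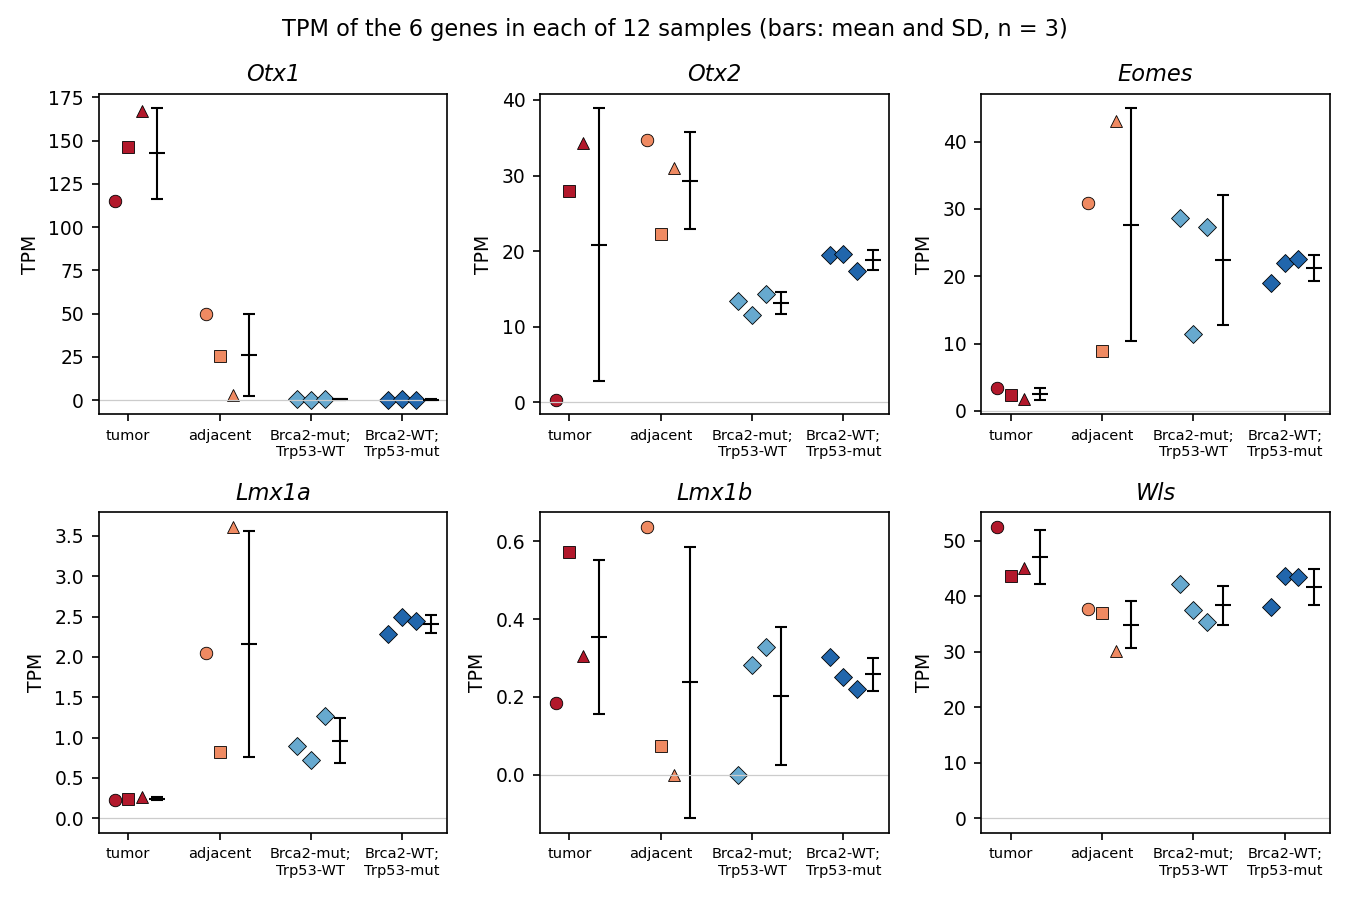
TPM of each of the 6 genes (vertical axes, each panel with its own linear scale) in the 12 samples, grouped by tumor, adjacent cerebellum and the control genotypes; circles, squares and triangles mark GB344, GB359 and GB370, diamonds mark controls, and bars give the mean and SD of 3 samples. Otx1 separates tumors (115 to 167 TPM) from all other samples, Eomes and Lmx1a are lowest in tumors, and Otx2 is at 0.323 TPM in one tumor and 28.0 and 34.3 TPM in the others.

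Otx2 did not follow its paralog. The tumor of GB344 held 0.323 TPM, against 28.0 TPM in GB359 and 34.3 TPM in GB370. Adjacent cerebella held 34.7, 22.3 and 31.0 TPM. Controls held 13.4, 11.5 and 14.4 TPM where Brca2 was mutant and 19.4, 19.7 and 17.3 TPM where Trp53 was mutant. One tumor was therefore below all other samples, and both others were above all 6 controls. The tumor mean was 1.31 times the control mean while the log2 fold change was -0.59 ± 0.86, so the direction depended on the scale, and without the tumor of GB344 the log2 fold change was 0.94. Against adjacent cerebella it was -1.43 ± 1.19, and 0.10 without that tumor.

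In the GB344 tumor, Otx2 was 96.3-fold lower than the mean of the other tumors, a ratio of 0.0104. Among 12729 genes with at least 5 TPM in a tumor, 117 had a ratio that low or lower. The 6 other genes of that level overlapping the 1000000 bases on either side of Otx2, which were looked up after this value was seen, had ratios of 0.777 to 1.33 with a median of 1.14. They were Ktn1, Peli2, Tmem260, Exoc5, Ap5m1 and Naa30. Otx2os1, a noncoding RNA gene annotated beside the Otx2 start at chr14:48669288-48793348, held 0.366, 1.97 and 1.35 TPM in the tumors of GB344, GB359 and GB370. It too was lowest in the GB344 tumor, but it stayed below 5 TPM in every sample, and its difference between tumors and controls (log2 fold change -0.19 ± 0.29) did not pass the test with limma adjusted p = 0.565. The strand setting of the authors' quantification is not given in the sources used here.

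Tumors and controls differed in which OTX gene they expressed. Their summed level was 115, 174 and 201 TPM in the tumors of GB344, GB359 and GB370, 84.6, 48.0 and 33.8 TPM in the adjacent cerebella, and 11.8 to 20.1 TPM in the 6 controls. Otx1 gave 99.7%, 83.9% and 83.0% of that sum in the tumors, 59.0%, 53.5% and 8.51% in the adjacent cerebella, and 1.66% to 4.99% in the controls. Controls thus expressed almost only Otx2, tumors mostly Otx1, and the GB370 adjacent cerebellum lay nearest the controls. Crx, the third gene of the family and a photoreceptor factor, held 0.685 to 1.55 TPM in all 12 samples, and tumors overlapped the controls (log2 fold change -0.04 ± 0.14, limma adjusted p = 0.804).

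**Figure D2:**
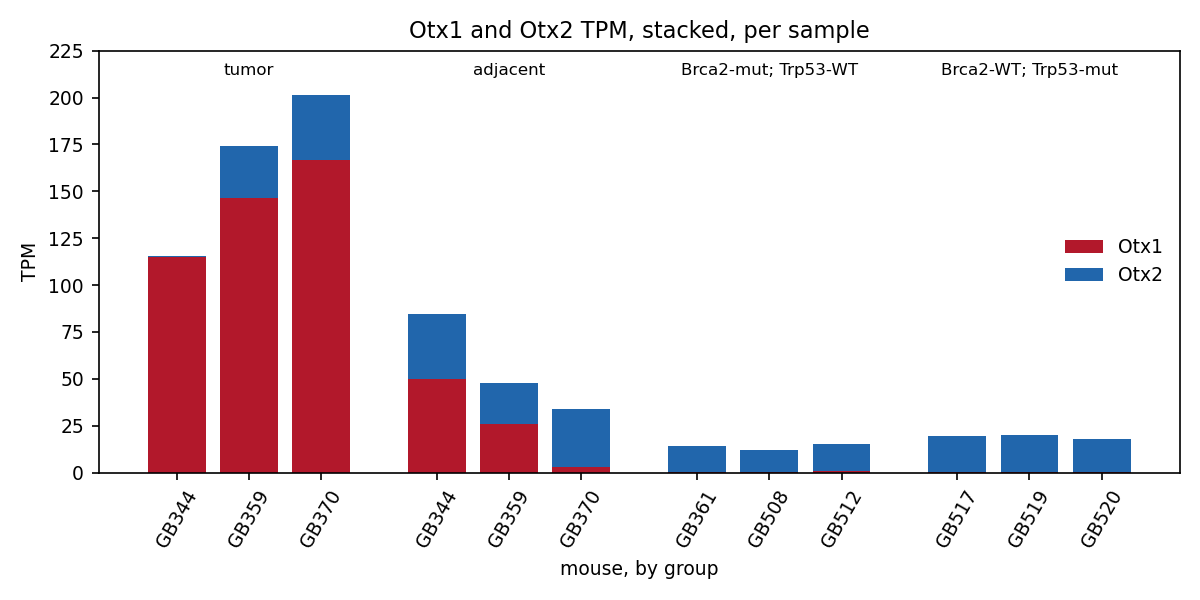
Otx1 (red) and Otx2 (blue) TPM stacked for each of the 12 samples (horizontal axis, mouse by group; vertical axis, TPM from 0). Otx1 makes up 83.0% to 99.7% of the bar in tumors and at most 4.99% in controls.

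Eomes was low in every tumor. It held 3.39, 2.44 and 1.71 TPM in the tumors of GB344, GB359 and GB370, against 30.9, 8.94 and 43.1 TPM in the adjacent cerebella. Controls held 28.6, 11.4 and 27.3 TPM (Brca2-mut;Trp53-WT) and 19.0, 22.0 and 22.6 TPM (Brca2-WT;Trp53-mut). Every tumor lay below every other sample, and the 3 cerebellar groups overlapped, with the lowest cerebella in GB359 and GB508. The tumor mean of 2.52 ± 0.841 TPM (SD, n = 3) was 0.115 of the control mean of 21.8 ± 6.23 TPM (SD, n = 6). The log2 fold change was -2.67 ± 0.27. Against adjacent cerebella the log2 fold change was -2.80 ± 0.54. The tumors were not fully without Eomes transcript, and the GB344 tumor, lowest in Otx2, had the highest Eomes of the 3.

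Lmx1a, like Eomes, was lowest in tumors, at a far lower level. Tumors of GB344, GB359 and GB370 held 0.230, 0.232 and 0.265 TPM, and adjacent cerebella 2.04, 0.817 and 3.62 TPM. The Brca2-mut;Trp53-WT controls held 0.893, 0.726 and 1.27 TPM, and the Brca2-WT;Trp53-mut controls 2.28, 2.49 and 2.45 TPM. All tumors were below all other samples, and the mouse with the lowest adjacent Eomes (GB359) also had the lowest adjacent Lmx1a. The log2 fold change of tumors against controls, -1.05 ± 0.25, lay at the edge of the calling rule and understates the ratio of means of 0.144, since the levels are near the added 1 TPM. The call was lost without any single tumor, where the fold change stayed at -1.05 to -1.07 and the p was no longer below the threshold, without any single Brca2-WT;Trp53-mut control (-0.96 to -0.98), with quantile normalization (-0.96) and with the Brca2-mut;Trp53-WT mice as the sole controls (-0.65).

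Lmx1b was at or near the floor in all samples and passed the filter on low values in none of the 4 comparisons. Its levels ran from 0.184 to 0.573 TPM in tumors, 0 to 0.638 TPM in adjacent cerebella and 0 to 0.327 TPM in controls. It was listed at 0 in the GB361 control and in the GB370 adjacent cerebellum. All neighboring groups overlapped.

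Wls was high and nearly level. It held 52.5, 43.6 and 45.0 TPM in the tumors of GB344, GB359 and GB370, 37.6, 36.9 and 30.1 TPM in the adjacent cerebella, 42.2, 37.5 and 35.3 TPM in the Brca2-mut;Trp53-WT controls and 38.0, 43.6 and 43.5 TPM in the Brca2-WT;Trp53-mut controls. The tumors were above all other samples, but the lowest tumor and the highest control were both 43.6 TPM after rounding. The log2 fold change of tumors was 0.23 ± 0.10 against controls and 0.42 ± 0.15 against adjacent cerebella.

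Counted by the calling rule, 5 of the 6 genes passed the filter for tumors against controls, and 1 was called higher (Otx1) and 2 lower (Eomes and Lmx1a), where 14.4% of all 16241 genes tested were called higher and 21.5% lower. For tumors against adjacent cerebella, 4 genes passed, none was called higher and 1 lower (Eomes), where 4.76% of 15845 genes were called higher and 18.0% lower. Nothing is read from these counts, since the genes were chosen with these values known, and against controls Otx1 passed the filter only through the tumors and Lmx1a only through the controls. Of all calls against adjacent cerebella, 20.9% were higher, and 34.4% and 42.2% with median-of-ratios scaling and quantile normalization. The Eomes call against adjacent cerebella was lost without the tumor or the adjacent cerebellum of GB344, without either of those of GB370 and without the tumor of GB359, with log2 fold changes of -2.37 to -2.98, and also without a filter (-2.80) and with quantile normalization (-2.46). Otx1 against adjacent cerebella differed by 3.03 ± 0.87 on the log2 scale, and the gene was called in a fit without the adjacent cerebellum of GB370 (1.95).

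**Figure D3:**
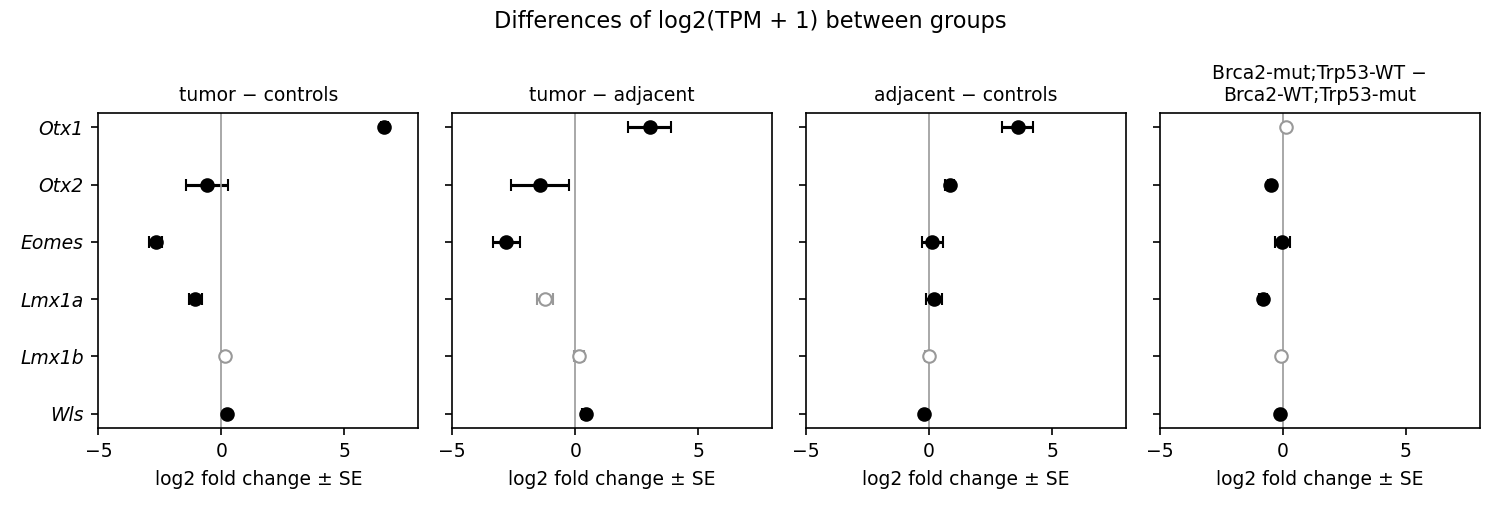
Differences of log2(TPM + 1) with SE (horizontal axes) for the 6 genes in the 4 comparisons; open grey symbols mark genes below the filter on low values. Otx1 lies at 6.63 and Eomes at -2.67 for tumors against controls, and the SE of Otx2 is wide in both comparisons with tumors.

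Adjacent cerebella were compared with controls in these factors. The adjacent tissue carried both mutations, while each control carried either the Brca2 or the Trp53 mutation. A position beside a tumor and the double mutant genotype can therefore not be told apart. Limma called none of the 5 genes tested in either direction (2 had an unadjusted p below 0.05), where 0.224% of 16091 genes were called higher and 0.0124% lower. Otx1 was higher in 3 of 3 adjacent cerebella than in any control, by 3.60 ± 0.62 on the log2 scale. It passed the filter only through the adjacent group and so had to differ, and the value is a description. It was 4.68 without the GB370 adjacent cerebellum and 1.43 with that cerebellum alone, an alternative chosen after seeing the data. Otx2 was also above all controls in 3 of 3, by 0.84 ± 0.19 (limma adjusted p = 0.0224). The p-values of members in this comparison are descriptions as well, since the genes were chosen with their levels known. Over all 16091 genes, 5551 had an unadjusted limma p below 0.05. The share of all genes above all controls in 3 of 3 was not counted. Eomes (0.13 ± 0.43, adjusted p = 0.851), Lmx1a (0.19 ± 0.33, adjusted p = 0.712) and Wls (-0.19 ± 0.10, adjusted p = 0.191) did not pass limma's test.

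Some granule progenitor genes varied in the adjacent cerebella as Otx1 did, and others did not. The adjacent level of Otx1 was 43.4%, 17.6% and 1.73% of that in the tumor of the same mouse for GB344, GB359 and GB370. Atoh1 gave 50.0%, 20.7% and 1.57%, Nhlh1, a basic helix-loop-helix factor of granule progenitors, 49.6%, 17.9% and 4.003%, and Mki67, a marker of dividing cells, 49.2%, 23.7% and 3.42%. All 4 genes had the same order of mice. Among the 11 rhombic lip and granule progenitor genes, Barhl1, Barhl2, Boc and Zic1 also fell from GB344 to GB370. Lhx2, Lhx9, Zic2 and Cdon did not, with Lhx9 at 17.3%, 109% and 247% and Cdon at 539%, 765% and 548%. Atoh1 (log2 fold change 4.62 ± 0.60) and Nhlh1 (4.88 ± 0.50) were the 2 of 11 rhombic lip and granule progenitor genes called higher in adjacent cerebella than in controls, and both passed the filter only through the adjacent group. The granule progenitor genes summed to 1138 to 1387 TPM in adjacent cerebella and 804 to 1079 TPM in controls. Most of these sums was Zic1 and Zic2. Zic1 held 614 to 641 TPM in adjacent cerebella and 475 to 666 TPM in controls, and Zic2 304 to 370 TPM and 229 to 285 TPM. The part of tumor cells in the Otx1 of adjacent tissue was not tested. Otx2 had a different pattern, at 10744%, 79.8% and 90.3% of the tumor level, and Eomes and Lmx1a were above their tumor level in all 3 mice, at 366% to 2515% and 352% to 1364% of it.

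**Figure D4:**
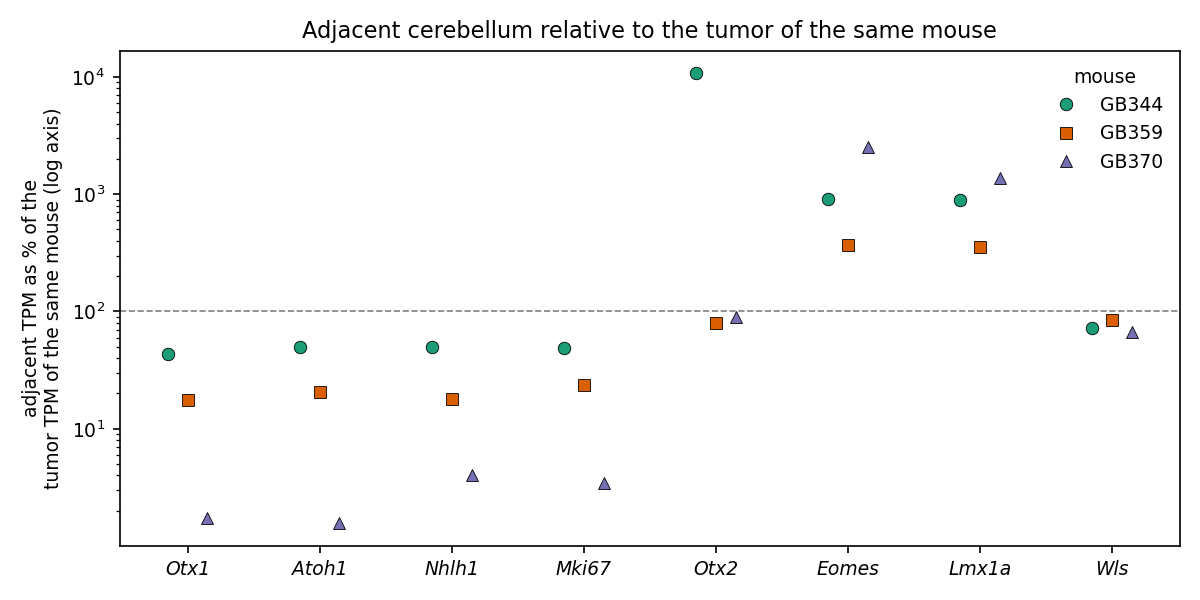
Adjacent TPM as a percentage of the tumor TPM of the same mouse (vertical log axis; the dashed line marks equal levels) for 8 genes, with one symbol per mouse. Otx1, Atoh1, Nhlh1 and Mki67 fall in the same order, from 43.4% to 50.0% in GB344 down to 1.57% to 4.003% in GB370, while Eomes and Lmx1a lie above the line.

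Between the tumor-free genotypes, limma called none of the 4 genes tested (2 had an unadjusted p below 0.05), where 0.0128% of 15575 genes were called higher and 0.0449% lower in Brca2-mut;Trp53-WT mice. Otx2 was lower in 3 of 3 of these mice than in any Brca2-WT;Trp53-mut mouse, with a log2 fold change of -0.49 ± 0.11 (limma adjusted p = 0.0898). Lmx1a was lower in 3 of 3 too, with -0.81 ± 0.15 (limma adjusted p = 0.0717). Because the members were chosen with their levels known, their p-values here are descriptions. Over all 15575 genes, 3123 had an unadjusted limma p below 0.05. The share of all genes whose 2 genotypes did not overlap was not counted, so nothing is read from the separation. Eomes (-0.02 ± 0.31, limma adjusted p = 0.9746) and Wls (-0.12 ± 0.09, limma adjusted p = 0.514) overlapped. Otx2 and Lmx1a are also known from choroid plexus epithelium and the roof plate from which it forms. The 12 choroid plexus genes summed to 897, 23.0 and 28.1 TPM in GB361, GB508 and GB512, and to 4047 to 5291 TPM in Brca2-WT;Trp53-mut controls. Ttr, the main choroid plexus transcript, held 842, 9.60 and 11.8 TPM in those 3 mice and 3849 to 5039 TPM in Brca2-WT;Trp53-mut controls. Otx2 in GB361, GB508 and GB512 held 13.4, 11.5 and 14.4 TPM, and Lmx1a 0.893, 0.726 and 1.27 TPM. All 12 choroid plexus genes were lower in Brca2-mut;Trp53-WT controls without overlap, and 1 of them, Calml4, was called (-2.47 ± 0.18, limma adjusted p = 0.00513). Such separation was not particular to choroid plexus genes. Without overlap, 6 of 6 Purkinje cell genes were higher in the Brca2-mut;Trp53-WT controls. Likewise, 6 of 6 rhombic lip and granule progenitor genes tested and 4 of 8 granule neuron genes were lower. Limma called none of the genes in these 3 lists. The part of choroid plexus in the Otx2 and Lmx1a of these samples was not tested. In tumors the list summed to 32.1 to 55.4 TPM and in adjacent cerebella, where Otx2 was at 22.3 to 34.7 TPM, to 28.2 to 78.1 TPM.

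Eomes was set beside 7 genes used as unipolar brush cell markers, several of which are also strong in granule or Purkinje cells. In tumors against controls 5 were lower and 1 higher, where 21.5% of all genes tested were lower and 14.4% higher. The median log2 fold change was -2.10 over the list, against -0.11 over all genes tested. Calb2, the calcium-binding protein calretinin, fell by 3.69 ± 0.30 (limma adjusted p = 1.56e-06) and is counted in the granule neuron list too. Plcb4, a phospholipase C, had a log2 fold change of -2.79 ± 0.08 (limma adjusted p = 6.9e-09). Grm2, a glutamate receptor of Golgi and unipolar brush cells, fell by 3.35 ± 0.20 (limma adjusted p = 1.54e-07), from 16.9 to 19.9 TPM in controls to 0.269 to 1.70 TPM in tumors. Slc17a6, a vesicular glutamate transporter of immature excitatory neurons, was the one that rose (1.41 ± 0.30, limma adjusted p = 0.00149), although its 16.8 to 48.9 TPM in tumors overlapped the 8.83 to 17.0 TPM in controls. Pax6, shared by granule progenitors and unipolar brush cells, had 95.004 to 156 TPM in tumors and 55.5 to 75.5 TPM in controls, a difference of 0.89 ± 0.15 that fell short of the size threshold. Against adjacent cerebella the same list had 5 lower and 0 higher, and adjacent cerebella against controls had 0 in either direction by limma, with 2 of the 7 at an unadjusted p below 0.05.

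**Figure D5:**
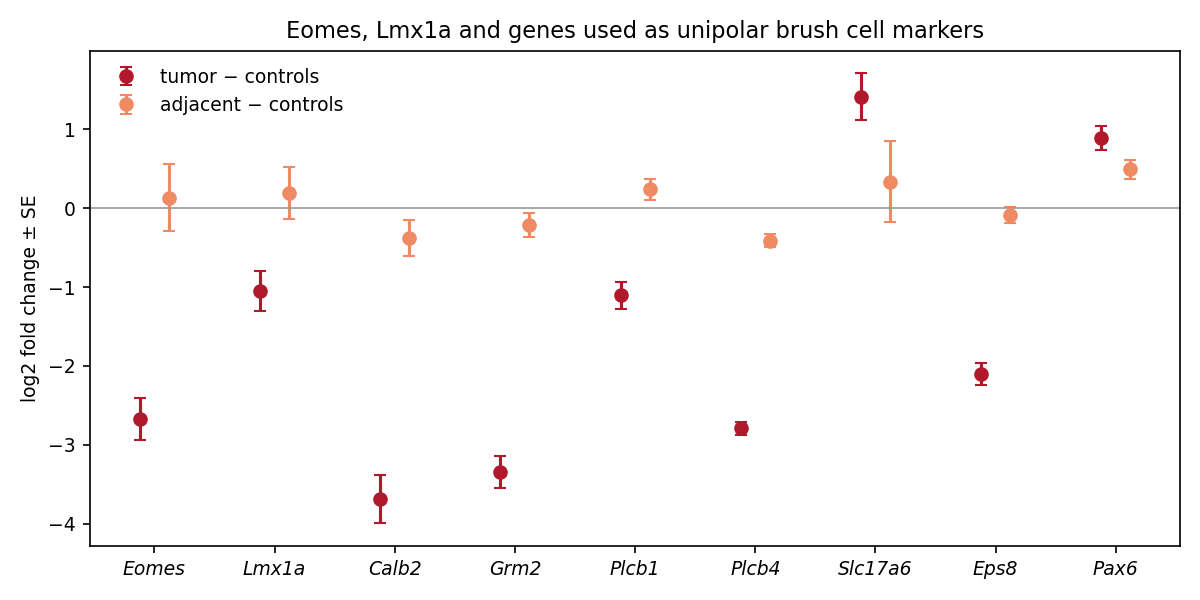
Log2 fold change with SE (vertical axis) of Eomes, Lmx1a and the 7 marker genes, for tumors against controls (dark red) and adjacent cerebella against controls (orange). In tumors 5 of the 7 markers were called lower, while in adjacent cerebella none was called.

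Of the 11 rhombic lip and granule progenitor genes, 6 were higher and 1 lower in tumors than in controls. The shares over all genes tested, for this and the next lists, were 14.4% higher and 21.5% lower. Nhlh1 rose by 7.54 ± 0.17 (limma adjusted p = 3.16e-09) and Mki67 by 6.06 ± 0.51 (limma adjusted p = 2.02e-06). The classifier genes of human medulloblastoma subgroups gave 4 of 5 higher for SHH, among them Pdlim3 (2.47 ± 0.18, limma adjusted p = 7.52e-07) and Sfrp1, a secreted WNT antagonist (5.93 ± 0.41, limma adjusted p = 4.16e-07). Atoh1, another of the 4, is also in the progenitor list and passed the filter only through the tumors. The remaining SHH gene, Eya1, went the other way without being called. It held 1.59 to 1.97 TPM in tumors, below every control (2.37 to 3.96 TPM). Limma called none of the 4 Group 3 genes tested, Impg2 among them (0.13 ± 0.13, limma adjusted p = 0.386), and 2 had an unadjusted p below 0.05. Of the 6 Group 4 genes beside Eomes, 3 were lower and 2 higher. Kcna1, a potassium channel, fell the most of these (-3.77 ± 0.34, limma adjusted p = 2.83e-06). The 2 higher genes, Oas1a and Oas1g, are interferon-induced and near copies of each other, so their reads may be shared and their separate values are uncertain.

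The photoreceptor genes that OTX and CRX factors control in retina and pineal gland were mostly below the filter, with 4 of 11 tested, 0 higher and 2 lower. These were Rom1 (-2.05 ± 0.18, limma adjusted p = 2.38e-06) and Pde6g (-1.38 ± 0.18, limma adjusted p = 6.01e-05), and the list summed to 7.33 to 9.74 TPM in tumors and 18.3 to 29.8 TPM in all cerebella. Rom1 alone held 3.22 to 4.98 TPM of the sum in tumors and 14.1 to 23.9 TPM in cerebella, so the sum mainly follows that gene. Prdm1 went the other way without being called, with 1.04 to 1.85 TPM in tumors and 0.216 to 0.822 TPM in controls. Nr2e3, below the filter, was also above every control in all tumors. Among 14 paralogs and cofactors of the 6 genes, 2 of the 10 tested were higher and 2 lower. That is near the share over all genes tested, 14.4% higher and 21.5% lower, and nothing is read from the count. Tle1, a Groucho-type corepressor, rose by 2.21 ± 0.13 (limma adjusted p = 1.32e-07), and Lhx3, a LIM-homeodomain gene, by 2.86 ± 0.46 (limma adjusted p = 0.000242). Lhx5, a LIM-homeodomain gene of Purkinje cell precursors, fell by 3.37 ± 0.17 (limma adjusted p = 5.09e-08).

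Genes for WNT ligands and for their maturation were set beside Wls. Of 20 genes for WNT ligands and their maturation, 13 were tested and 9 were lower and 1 higher in tumors than in controls. Against adjacent cerebella 9 were lower and 0 higher. Over all genes tested, 21.5% were lower and 14.4% higher against controls, and 18.0% and 4.76% against adjacent cerebella. Porcn and Notum, which encode enzymes and not ligands, were among the 9 lower than in controls. Porcn, the acyltransferase that adds the lipid by which WNT ligands bind WLS, fell by 1.71 ± 0.19 (limma adjusted p = 1.69e-05). Wnt7a, a ligand of granule neurons, fell by 3.60 ± 0.21 (limma adjusted p = 1.35e-07), from 37.5 to 49.4 TPM in controls to 1.47 to 4.49 TPM in tumors. Notum, the enzyme that removes the same lipid, fell by 2.53 ± 0.11 (limma adjusted p = 3.21e-08). Wnt4 was the ligand that rose (2.28 ± 0.34, limma adjusted p = 0.000141). The summed list had 57.4 to 105 TPM in tumors and 229 to 324 TPM in the 9 cerebella. Porcn alone held 31.0 to 61.1 TPM of this in tumors and 132 to 226 TPM in the cerebella, so the sum is not a level of the ligands.

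Genes of the roof plate and midbrain-hindbrain boundary, where Lmx1a, Lmx1b and Otx2 act in the embryo, had 2 higher and 5 lower of 8 tested. All genes tested had 14.4% higher and 21.5% lower, for this and the following lists. Fgf8, the signal of the isthmus that borders the Otx2 domain, rose by 4.47 ± 0.22 (limma adjusted p = 4.64e-08), from at most 0.543 TPM in controls to 17.9 to 38.0 TPM in tumors. En1, a homeodomain factor of the same border, rose by 1.79 ± 0.35 (limma adjusted p = 0.000979). Pax2 fell by 2.85 ± 0.12 (limma adjusted p = 2.37e-08), and Gdf7, the roof plate ligand, did not pass the test (-0.16 ± 0.25, limma adjusted p = 0.573). Of 10 monoaminergic neuron genes, 5 were tested and 1 was higher and 2 lower, the higher one being Foxa2, a forkhead factor (4.05 ± 0.32, limma adjusted p = 1.18e-06), and serotonergic Tph2 was below the filter. The 12 caudal Hox genes summed to at most 13.8 TPM in any sample, and limma called neither of the 2 tested (1 had an unadjusted p below 0.05). In addition, 1 of 8 meningeal and fibroblast genes (Slc6a13) and 1 of 12 choroid plexus genes (Kcnj13) were lower in tumors.

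The patterns of the 6 genes over the samples were described by Pearson's r of log2(TPM + 1), over samples that share mice, genotype and tumor content, so r describes likeness and carries no test. Over the 12 samples, Eomes and Lmx1a had r = 0.86, and Otx1 had -0.76 with Eomes and -0.08 with Otx2. Over the 9 samples without a tumor, Eomes and Lmx1a had r = 0.65. The genes most like Otx1 over 12 samples were Tecta (r = 0.996), Lmnb1 and Kntc1, and over the 9 were Mycn (r = 0.997), Tecta and Adamts14. Mycn held 343.9 to 1133 TPM in tumors and 10.9 to 126 TPM in adjacent cerebella. Those most like Otx2 were Pou6f1 (r = 0.961), Stambp and Gid8, and over the 9 Mlxip, Hspg2 and Plxna3. Eomes was nearest to Nrep (r = 0.969), Rflnb and Pitpnc1, and over the 9 to Hpgd, 1700022H01Rik and Nuak1. Lmx1a was nearest to Olfr543, Krt26 and Trim39, and over the 9 to Olfr543, Txndc11 and Krt26, and Wls to Gmps, Fam114a1 and Hikeshi, and over the 9 to Zfp971, Lmbrd2 and Hdx. Lmx1b, with a mean below 1 TPM, was left out.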

How the data were processed

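RNA of 12 mouse cerebellar and tumor samples was sequenced by the authors in 75-base reads. The authors deposited TPM per gene, made with Salmon 0.8.1 on TxDb.Mmusculus.UCSC.mm10.knownGene 3.4.0 and tximport 1.20. The authors' own tests used counts. Counts were not used here, so no count model could be run and depth is unknown. The samples summed to 999793 to 999876 TPM, with 15088 to 15803 genes at 1 TPM or more. Replicates are separate mice, grouped by the labels.

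TPM were tested with limma 3.58.1 (R 4.3.3, eBayes with a trend) on log2(TPM + 1), for genes that reached 1 TPM in 3 or more of the samples compared. Benjamini-Hochberg adjustment ran over all genes tested, and calls used the study's thresholds (adjusted p below 0.01 and a log2 fold change of 1 or more in size). The members, the 16 gene lists (146 genes, with 2 further markers not reported here) and the rules were chosen with earlier results of these data known. Genes named were the members, the first gene of each list, up to 3 called genes per list with the largest change and no overlap between groups (2 in comparisons other than tumors against controls), and the 3 genes most correlated with each member. A few others (Slc17a6, Pax6, Calml4, Wnt4, En1 and the neighbors of Otx2) were chosen after their values were seen. In data simulated without pairing of mice, 200 genes with a mean log2(TPM + 1) above 3 in the second group were changed by 2 log2 units. The fits recovered 97.5% of them (tumors against controls, 16241 genes), 68.5% (tumors against adjacent, 15845), 96% (adjacent against controls, 16091) and 96.5% (control genotypes, 15575). False calls numbered 0, 2, 1 and 2 in that order. Recovery at lower levels, such as that of Lmx1a, or of smaller changes was not measured.

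Tumor and adjacent samples share mice by their labels. Deviations of same-mouse samples from their group means correlated at 0.249, 0.176 and 0.152, against -0.163 to 0.018 for other pairs. Such deviations cancel out within a group, which lowers the other pairs where same-mouse pairs are high. The pairing is therefore taken from the labels. Positions and promoters came from RefSeq on GRCm38.p6, to which 24045 of 24091 genes matched. Other pseudocounts, filters, scalings, control groups and left-out replicates were tried.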

Additional observations from a re-analysis of the deposited data

How the results depend on the processing

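The direction of Otx1, Eomes, Lmx1a and Wls in tumors against controls held under each alternative that gave a value. Otx2 reversed without the tumor of GB344 (0.94 against controls, range -1.43 to 0.94 leaving out single samples, and 0.10 against adjacent cerebella, range -2.27 to 0.10). Differences near 0 reversed too. Eomes in adjacent cerebella against controls was -0.07 and -0.30 without the adjacent cerebellum of GB344 or GB370 and -0.03 without GB508 (range -0.30 to 0.77). Between control genotypes, Eomes was 0.057 with median-of-ratios scaling, 0.078 with quantile normalization, and 0.39, 0.0049 and 0.02 without GB508, GB519 or GB520 (range -0.24 to 0.39). Lmx1a in adjacent cerebella was -0.21 against the Brca2-WT;Trp53-mut controls alone and -0.13 without the adjacent cerebellum of GB370 (range -0.13 to 0.54). The cause was not tested.

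The 2 members called lower in tumors against controls became 1 with a minimum of 5 TPM, with quantile normalization and with the Brca2-mut;Trp53-WT controls alone, and ranged from 1 to 2 as single mice were left out. A minimum of 5 TPM removes Lmx1a from the genes tested. Against adjacent cerebella the 1 member called lower became 0 without a filter and with quantile normalization (range 0 to 1 leaving out single samples). The 0 called higher became 1 with all 4 groups in one fit (range 0 to 1). A fit with the adjacent cerebellum of GB370 alone was chosen after seeing the data. Its lone sample has no spread of its own and is assumed to vary like the tumors, so no call is read from it. The log2 difference of Otx1 was 5.19 in that fit. In adjacent cerebella against controls, the 0 called higher became 1 with pseudocounts of 0.1 and 0.01 (range 0 to 1). With the mouse as a replicate block, tumors against adjacent cerebella gave 701 genes higher and 2841 lower over all genes, against 755 and 2852 without it, and no member's call changed with the pairing.

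Counts over all genes moved by more than 1.5 times in places. Genes higher in tumors than in adjacent cerebella numbered 465 without a filter, 1296 with median-of-ratios scaling, 1603 with quantile normalization and 1278 with all 4 groups in one fit. Those higher in adjacent cerebella than in controls (36) ranged from 0 to 564, and those lower (2) from 0 to 29. Between control genotypes the 2 higher ranged from 2 to 5 and the 7 lower from 0 to 27. Depth is unknown, so Lmx1b below 1 TPM cannot be bounded.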

Other observations

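Genes outside the 6 also differed among the 3 tumors, chosen here after their values were seen and with no test. In the GB370 tumor, Mab21l2, a Group 3 classifier gene, held 133 TPM against 5.58 TPM in GB344 and 8.49 TPM in GB359, and Isl1, a LIM-homeodomain gene, held 38.4 TPM against 1.37 and 0.249 TPM. Th, the enzyme that starts catecholamine synthesis, held 62.8 TPM in that tumor against 1.65 and 9.61 TPM, and its adjacent cerebella held 72.9 TPM in GB370 and 46.0 and 15.7 TPM in GB344 and GB359. In the GB344 tumor, which had the lowest Otx2, Npr3 held 10.2 TPM against 1.14 TPM in GB359 and 0.993 TPM in GB370, Rbm24 held 22.6 TPM against 5.84 and 4.21 TPM, and Foxa2 held 35.9 TPM against 9.23 and 15.1 TPM. Lhx3 held 25.5 and 22.2 TPM in the tumors of GB344 and GB359 and 3.68 TPM in GB370.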
